A study of Cavia porcellus with 44 samples.

Results

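Liver RNA was compared between guinea pigs that had received a single feed for 32 weeks, either low fat and high vitamin C (LFH, n = 8) or high fat and high vitamin C (HFH, n = 8). These 16 animals, all female and of the outbred Hartley strain, were picked by their labelled diet alone from the 44 animals in 6 groups that were sequenced. The LFH feed held 3.8% fat, 0% cholesterol and 0% sucrose, and the HFH feed held 20% fat, 0.35% cholesterol and 15% sucrose. Both held 2000 mg vitamin C (vitC) per kg, which matters in a species that, like humans, cannot make its own. By the study's diet composition the feeds also differed in fibre, starch and the source of fat. HFH animals ate freely and LFH animals were pair-fed to them. Fat, cholesterol, sucrose, the other parts of the feed and the way of feeding therefore cannot be told apart in this comparison. The labels call the LFH animals healthy and the HFH animals affected by non-alcoholic steatohepatitis (NASH). Each animal gave 1 library from frozen tissue of the left lateral liver lobe, and genes carry the symbols of their human orthologues.

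The liver makes cholesterol and fatty acids from acetyl-CoA, and cholesterol that arrives with the diet normally switches its own synthesis off through the sterol-sensing SREBP system. Surplus lipid is stored in droplets, burnt in mitochondria, exported in lipoproteins or turned into bile acids. In NASH, fat-laden hepatocytes are joined by recruited macrophages, matrix-producing stellate cells and proliferating bile duct cells.

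Total counts ranged from 23153453 to 31655787 in LFH and from 21894545 to 35427724 in HFH. The 10 most abundant symbols took 21.2% to 27.1% of the counts in LFH and 12.6% to 20.9% in HFH, and the scaling factors of edgeR's trimmed mean of M-values (TMM) were 0.715 to 0.913 in LFH and 1.04 to 1.38 in HFH. Levels below are CPM, counts divided by the library total after this scaling, and the floor of 3 counts corresponds to 0.129 to 0.167 CPM in LFH and 0.0626 to 0.109 CPM in HFH (counting error only). Log2 fold changes are HFH minus LFH from edgeR's fit of all 44 animals, given ± SE, with Benjamini-Hochberg adjusted p-values over all 7750 tested symbols. Of the HFH animals, numbers 6, 61 and 88 had the lowest summed CPM of 10 hepatocyte markers, at 34500.5, 44749.8 and 47507, against 67322 to 112987 in the other 5. Leaving out any 1 animal kept the number of called symbols between 3575 and 3842.

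Of 7750 tested symbols, 3822 (49.3%) passed an adjusted p of 0.05 between HFH and LFH. Because 964 symbols share identical counts with another symbol, genes were then counted as distinct count profiles. Some of these symbols are relatives, as HBA1 and HBA2 are, and others are not, as with SQLE and ZNF572. The cause of the sharing was not tested. Of 7149 profiles, 2002 (28.0%) were higher and 1554 (21.7%) lower in HFH, with at least a 2-fold change in 1102 (15.4%) and 404 (5.65%). The groups did not overlap in 649 profiles (9.08%) that were higher and in 575 (8.04%) that were lower. The balance of directions depended on the scaling, since 56.1% of the called symbols were higher with TMM and 91.0% with library size alone, which moved the median of all profiles up by 0.55. All changes below are relative to the TMM scale, and lists or families whose median changes sign with library size alone are marked where they are described. Counts of called members in any list or family stand against 28.0% higher and 21.7% lower, and counts without overlap against 9.08% and 8.04%.

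**Figure D1:**
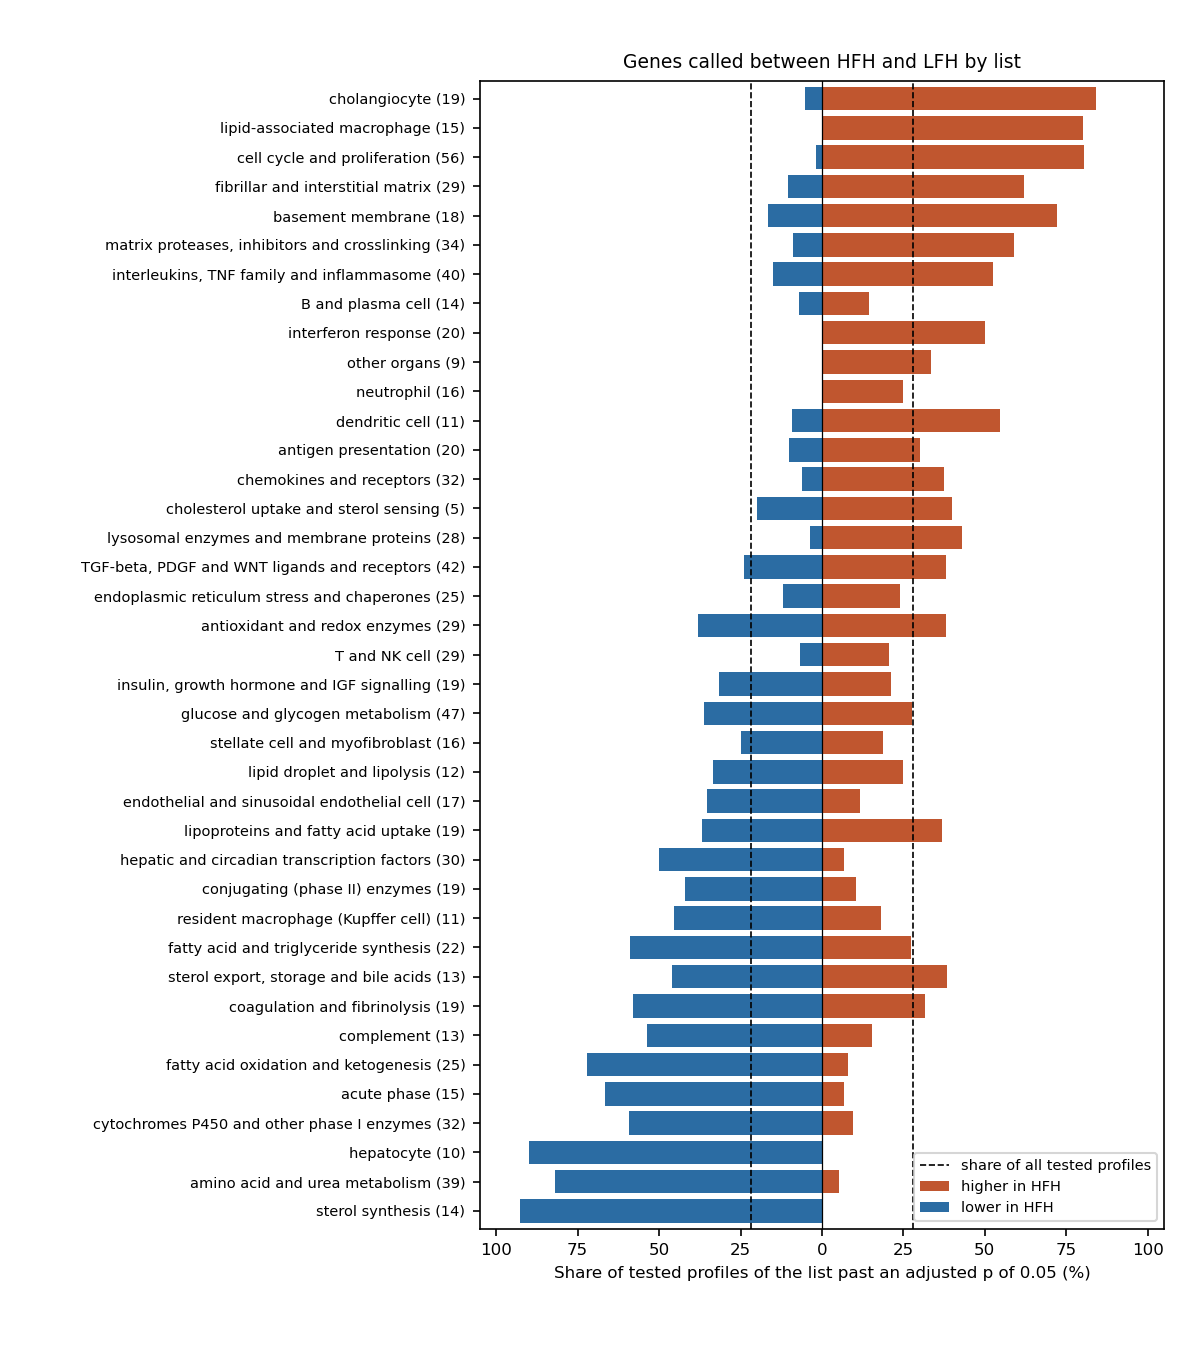
The bars give, for each of 39 gene lists (number of tested profiles in brackets), the share of profiles called higher (right) or lower (left) in HFH than in LFH with an adjusted p under 0.05, and dashed lines give the shares among all tested profiles, 28.0% higher and 21.7% lower. Sterol synthesis, hepatocyte and amino acid lists lie almost wholly to the left, and the cholangiocyte, lipid-associated macrophage and cell cycle lists almost wholly to the right.

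Among the largest falls were those of a receptor and a lipogenic regulator. ADRA1A, the alpha-1A adrenergic receptor, had 93.1 to 203 CPM in LFH (median 143) and 0 to 1.09 CPM in HFH (median 0.181). No HFH animal came near the LFH range, and the fold change was log2 fold change -8.96 ± 0.84, adjusted p = 1.01e-11. THRSP, a thyroid-hormone responsive protein of fat synthesis, went from 179 to 657 CPM (median 334) in LFH to 0.1252 to 1.67 CPM (median 0.696) in HFH (log2 fold change -8.72 ± 0.78, adjusted p = 3.02e-12), again without overlap. Others of the 12 largest falls, by the same criterion of at least 1 CPM on average and no overlap, were C9orf152 (-8.07 ± 0.96), SDR16C5 (-7.23 ± 1.02), a retinol dehydrogenase, the citrate and succinate carrier SLC13A2 (-6.58 ± 0.88), CIB4 (-6.19 ± 1.02), MROH7 (-5.12 ± 0.94), EYA1 (-4.86 ± 0.97), a transcriptional co-activator, PRG2.1 (-4.67 ± 0.86), TXK (-4.60 ± 0.46), a T cell kinase of the TEC family, and the glutamate receptor subunit GRIA2 (-4.44 ± 0.75), all as log2 fold changes.

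At the other end stood macrophage and epithelial genes. MMP12, the macrophage elastase, had 0 to 0.21 CPM in LFH (median 0) and 13.6 to 102 CPM in HFH (median 76.7). No LFH animal was above 0.21 CPM and all HFH animals were far higher (log2 fold change 10.39 ± 0.77, adjusted p = 1.66e-14). KRT23, a type I keratin, went from 0 to 0.335 CPM (median 0) to 20.05 to 54.2 CPM (median 39.3) (log2 fold change 9.55 ± 0.61, adjusted p = 4.88e-16), and TREM2, the lipid-sensing receptor of fat-laden macrophages, from 0 to 0.668 CPM (median 0.0455) to 43.9 to 78.3 CPM (median 58.2) (log2 fold change 8.22 ± 0.61, adjusted p = 1.58e-14). CCL7, a chemokine that attracts monocytes, and PPP1R36, a regulatory subunit of protein phosphatase 1, had no count in any LFH animal and 1.06 to 9.07 and 2.50 to 9.35 CPM in HFH. Against 3 counts over the whole LFH group they were at least 234-fold and at least 267-fold higher. The others of the 12 largest rises were SLC34A2 (7.51 ± 0.77), a phosphate carrier, the RNA-binding protein RBM24 (7.20 ± 0.66), the homeobox gene BARX2 (6.07 ± 0.86), the melanocortin receptor MC1R (6.03 ± 0.44), the myosin chaperone UNC45B (5.99 ± 0.84), GABRR3 (5.98 ± 0.83), a GABA receptor subunit, and CCL2 (5.80 ± 0.43), the main monocyte chemokine. In LFH, these 7 genes except CCL2 and MC1R lay at 0 CPM in the median animal.

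**Figure D2:**
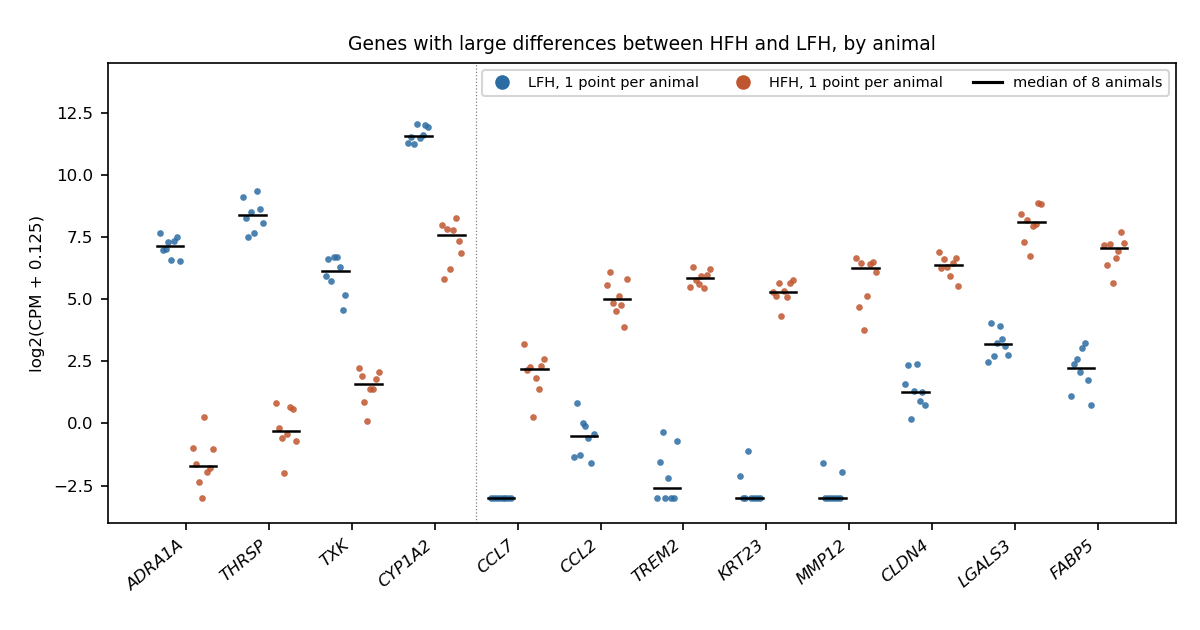
Each point is 1 animal (blue LFH, orange HFH, 8 each), the short bars are medians and the axis is log2(CPM + the prior count of the fit). For the 4 genes left of the dotted line every LFH animal lies above every HFH animal, as for ADRA1A with 93.1 to 203 CPM against 0 to 1.09 CPM, and for the 8 genes right of it the order is turned around.

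Genes of cholesterol synthesis fell together. Of 14 tested enzymes of the pathway, 13 were lower in HFH, 0 were higher and 11 did not overlap between the groups, against 21.7% and 8.04% of all profiles, and the median log2 fold change was -1.77 against 0.06 for all profiles. Their summed level was 2711 to 4294 CPM in LFH and 714 to 1535 CPM in HFH, a ratio of 3.22 between the group means. SQLE, the epoxidase that opens the sterol branch and which shares its counts with ZNF572, went from 69.6 to 163 CPM (median 104) to 24.1 to 37.8 CPM (median 28.4), without overlap (log2 fold change -1.90 ± 0.20, adjusted p = 1.09e-10).

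Enzymes of the late steps, between lanosterol and cholesterol, were among those with the largest falls. SC5D, the lathosterol desaturase, went from 373 to 774 CPM (median 423) in LFH to 44.8 to 82.0 CPM (median 56.7) in HFH, with a wide gap between the groups (log2 fold change -3.04 ± 0.24, adjusted p = 7.89e-14). Other post-squalene enzymes were MSMO1 at -2.96 ± 0.25, NSDHL at -2.36 ± 0.27, DHCR7 at -2.16 ± 0.22, TM7SF2 at -1.83 ± 0.13, EBP at -1.72 ± 0.19 and CYP51A1 at -1.64 ± 0.20 in log2 fold change. Of the earlier enzymes, ACAT2 was at -1.02 ± 0.34 and the mevalonate kinases PMVK and MVK at -0.76 ± 0.14 and -0.61 ± 0.12. HSD17B7, itself an enzyme of the late steps, was the one member of the list not called (-0.32 ± 0.23, adjusted p = 0.248).

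**Figure D3:**
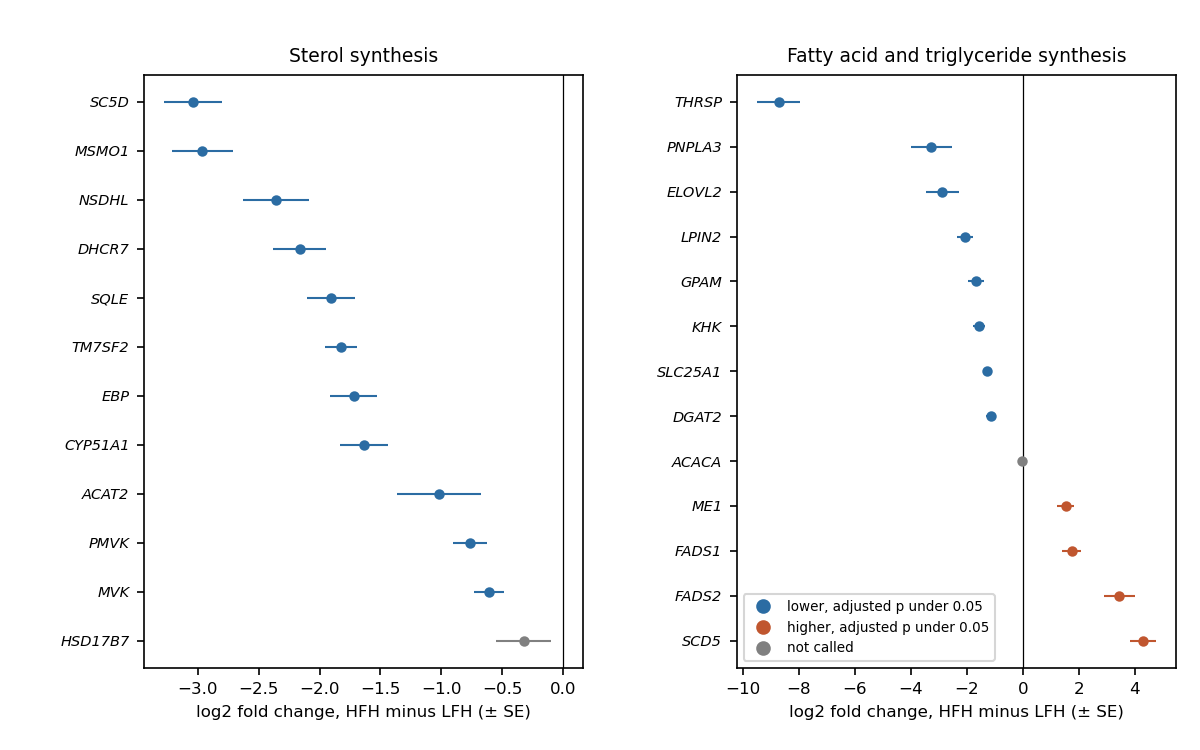
Points are log2 fold changes of HFH minus LFH with their SE for those genes of the sterol (left) and of the fatty acid and triglyceride lists (right) that are named in the text, in blue where lower, orange where higher and grey where not called. On the TMM scale the sterol genes shown lie below 0 (HSD17B7 above it with library size alone), from HSD17B7 at -0.32 to SC5D at -3.04, whereas the fatty acid genes span THRSP at -8.72 to SCD5 at 4.29.

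STARD4, a carrier that shuttles cholesterol between membranes and is a target of the sterol-sensing system, went from 18.4 to 44.5 CPM (median 23.1) to 4.34 to 8.66 CPM (median 7.03), without overlap (log2 fold change -2.01 ± 0.23, adjusted p = 7.93e-10). Of the 5 tested genes of uptake and sensing, NPC1, which releases cholesterol from lysosomes, and the lipoprotein receptor VLDLR were higher (0.27 ± 0.11 and 0.71 ± 0.19), and both overlapped between the groups. NPC1 lost its call when any of 7 animals was left out, with the smallest change without LFH animal 5 (0.21, adjusted p = 0.0959). Among 13 genes of sterol export, storage and bile acids, 5 were higher and 6 lower, against 28.0% and 21.7% of all profiles. NR1H3, the liver X receptor that senses oxysterols, had 374 to 496 CPM in LFH (median 420.3) and 66.5 to 166 CPM in HFH (median 149). It was lower in every HFH animal (log2 fold change -1.70 ± 0.16, adjusted p = 1.89e-11), while its classical target ABCG1, an exporter of cholesterol to high-density lipoprotein, was higher in each of them, with 33.7 to 70.6 CPM in LFH (median 51.7) and 124 to 267 CPM in HFH (median 189.9) (log2 fold change 1.95 ± 0.18, adjusted p = 1.35e-11). ABCC4, an exporter of bile acids into blood, rose from 1.95 to 5.22 CPM (median 3.29) to 12.2 to 44.7 CPM (median 30.3) (log2 fold change 3.10 ± 0.26, adjusted p = 4.36e-13), and the cholesteryl ester hydrolase NCEH1 rose by 1.26 ± 0.21. AKR1D1, which reduces the steroid nucleus of bile acids, fell from 423 to 851 CPM (median 611) to 39.99 to 132 CPM (median 93.1) (log2 fold change -2.79 ± 0.34, adjusted p = 6.74e-09), and the bile acid-CoA ligase and fatty acid carrier SLC27A2 was at -1.27 ± 0.17. SOAT2, which esterifies cholesterol, lay near the floor in both groups (0 to 0.477 CPM in LFH (median 0.131) and 0 to 0.463 CPM in HFH (median 0.257)) and was not called.

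Of 22 tested genes of fatty acid and triglyceride synthesis 13 were lower and 6 higher, the latter a share near the 28.0% of all profiles, with a median of -0.55. Their summed level was 3967 to 5832 CPM in LFH and 1873 to 2660.2 CPM in HFH, lower in every HFH animal. PNPLA3, a lipase of the lipid droplet that follows carbohydrate feeding, had 2.25 to 37.3 CPM in LFH (median 14.2) and 0.175 to 4.93 CPM in HFH (median 1.51), with overlap of a few animals (log2 fold change -3.27 ± 0.73, adjusted p = 2.37e-04). Fructokinase (KHK, -1.57 ± 0.21) and the mitochondrial citrate carrier SLC25A1 (-1.28 ± 0.16), which feed carbon into fat synthesis, were lower, as were ELOVL2 (-2.87 ± 0.59), LPIN2 (-2.07 ± 0.29), GPAM (-1.68 ± 0.29) and DGAT2 (-1.15 ± 0.16), which elongate fatty acids or build triglyceride. SCD5, a stearoyl-CoA desaturase, had 0.314 to 2.23 CPM in LFH (median 0.869) and 2.97 to 61.04 CPM in HFH (median 16.6). The HFH animals spread widely but none reached down to LFH (log2 fold change 4.29 ± 0.47, adjusted p = 5.15e-10). FADS2, the first desaturase of polyunsaturated fatty acids, had 0.627 to 1.95 CPM in LFH (median 1.35) and 2.43 to 31.6 CPM in HFH (median 11.3) (log2 fold change 3.44 ± 0.55, adjusted p = 1.65e-06), its partner FADS1 rose by 1.74 ± 0.34, and malic enzyme ME1, a source of NADPH, by 1.53 ± 0.32. ACACA, which makes malonyl-CoA, did not differ beyond its error (-0.02 ± 0.15, adjusted p = 0.907).

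On the TMM scale most genes of fatty acid oxidation and ketogenesis were lower. Of 25 tested, 18 were lower and 2 higher, against 21.7% and 28.0% of all profiles, with a median of -0.70. With library size alone 11 were lower and 6 higher, with a median of -0.18, and with limma voom 4 were higher. CPT1A, which admits long-chain acyl groups to mitochondria, had 64.5 to 525 CPM in LFH (median 254) and 90.7 to 159 CPM in HFH (median 119). The LFH animals alone spread over this range and the groups overlapped (log2 fold change -1.18 ± 0.33, adjusted p = 0.00252). CROT, the peroxisomal carnitine octanoyltransferase, fell without overlap from 397 to 601 CPM (median 498) to 106 to 206 CPM (median 169) (log2 fold change -1.60 ± 0.18, adjusted p = 9.89e-10), and ETFB, which passes electrons from acyl-CoA dehydrogenases to the respiratory chain, was at -1.30 ± 0.11. The ketogenic gene ACAT1 was at -0.88 ± 0.09. The exceptions were ACADL, an acyl-CoA dehydrogenase (1.47 ± 0.25), and ACSM3, which shares counts with REXO5 (0.56 ± 0.14). PDK4, which spares glucose when fat is burnt, was not called (-0.24 ± 0.18).

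Families of the mitochondrial machinery were lower in small, even steps. Of 30 tested complex I subunits and assembly genes 28 were lower and 0 higher (median -0.64), and of 9 cytochrome c oxidase genes 8 were lower (median -0.68). Of 50 mitochondrial ribosomal proteins 42 were lower and 2 higher, with a median of -0.39 that turned to 0.16 with library size alone. The ATP synthase (5 of 7 lower, -0.54 against 0.02 with library size alone) and the proteasome (23 of 27 lower, -0.50 against 0.04) had the same dependence. With library size alone 3 complex I genes were lower and 1 higher, and 0 cytochrome c oxidase genes were lower and 1 higher.

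Among lipid droplet genes PLIN2, the coat protein of hepatocyte droplets, had 32.7 to 55.7 CPM in LFH (median 44.4) and 142 to 352 CPM in HFH (median 190.1). All HFH animals were above LFH (log2 fold change 2.19 ± 0.30, adjusted p = 8.06e-08). HILPDA, an inhibitor of lipolysis, and the phospholipid acyltransferase LPCAT1 were also higher (0.64 ± 0.17 and 1.38 ± 0.17). CIDEA, a droplet protein that promotes their fusion, went the other way, from 48.9 to 226 CPM (median 114) to 6.18 to 20.9 CPM (median 11.6) (log2 fold change -3.34 ± 0.32, adjusted p = 2.65e-11), with hormone-sensitive lipase LIPE (-1.23 ± 0.17) and the ubiquitin adaptor AUP1 (-0.58 ± 0.08), and CIDEC was not called (-0.05 ± 0.20). In all 3 of 12 were higher and 4 lower, against 28.0% and 21.7% of all profiles, and the median of -0.19 became 0.36 with library size alone.

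Lipoprotein and fatty acid uptake genes had 7 of 19 called in each direction, against 28.0% higher and 21.7% lower of all profiles, with a median of -0.33 that became 0.22 with library size alone. Among the lower genes APOA2, an apolipoprotein of high-density lipoprotein, had 1331 to 2389.6 CPM in LFH (median 1641) and 258 to 602 CPM in HFH (median 375). Its groups were apart (log2 fold change -2.12 ± 0.20, adjusted p = 1.01e-11), as were those of the lipoprotein esterase PON1 (-1.77 ± 0.19) and of APOH (-1.50 ± 0.18). Among the higher genes the fatty acid binding protein FABP5 had 1.53 to 9.29 CPM in LFH (median 4.57) and 50.5 to 206 CPM in HFH (median 134) (log2 fold change 4.68 ± 0.35, adjusted p = 1.66e-14), LPL, which releases fatty acids from lipoproteins, had 3.90 to 13.3 CPM in LFH (median 8.46) and 26.0 to 88.5 CPM in HFH (median 62.9) (log2 fold change 2.95 ± 0.35, adjusted p = 2.81e-09), and FABP4 rose by 4.17 ± 0.54. The sorting receptor SORT1, with the counts of PSRC1, rose by 1.24 ± 0.12, and APOE, one of the most abundant messages, was not called (-0.21 ± 0.14).

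Of 15 tested genes of lipid-associated macrophages 12 were higher and 0 lower, with a median of 2.34 and a summed level of 196 to 314 CPM in LFH and 981 to 1627 CPM in HFH. Besides TREM2 and MMP12, LGALS3, a lectin of activated macrophages, had 5.47 to 16.3 CPM in LFH (median 9.03) and 106 to 469 CPM in HFH (median 274). All HFH animals exceeded LFH by a wide margin (log2 fold change 4.89 ± 0.31, adjusted p = 4.88e-16). CLEC7A, the beta-glucan receptor dectin-1, went from 0 to 1.27 CPM (median 0.944) to 11.3 to 28.9 CPM (median 22.8) (log2 fold change 4.83 ± 0.40, adjusted p = 3.25e-13). The resident Kupffer cell list of 11 had 5 lower and 2 higher, against 21.7% and 28.0% of all profiles, and its median of -0.44 turned to 0.09 with library size alone. CD5L, secreted by Kupffer cells, had 137 to 302 CPM in LFH (median 230.4) and 7.53 to 63.8 CPM in HFH (median 35.5) and was lower in every HFH animal (log2 fold change -2.74 ± 0.40, adjusted p = 3.03e-07). The mannose receptor MRC1, shared with sinusoidal endothelium, went from 117 to 143 CPM (median 134) to 51.6 to 77.1 CPM (median 60.97) (log2 fold change -1.05 ± 0.12, adjusted p = 1.27e-09). HMOX1 and ID3, expressed by Kupffer cells and others, were higher (0.68 ± 0.20 and 0.75 ± 0.21), and CD163 lay low in both groups and was not called (1.39 ± 0.90), but was called higher without LFH animal 27 (2.37, adjusted p = 0.0398) and with library size alone (2.03, adjusted p = 0.0494). In bulk tissue, fewer cells of a type and less RNA per cell cannot be told apart, here and for every cell type list that follows.

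Of 28 lysosomal genes 12 were higher and 1 lower, against 28.0% and 21.7% of all profiles, with a median of 0.17. GM2A, the activator of ganglioside breakdown, rose most (2.13 ± 0.17), followed by LAPTM5 (1.31 ± 0.15), a lysosomal protein of leukocytes, and the cathepsins CTSS (1.09 ± 0.16) and CTSV (1.03 ± 0.13). CTSD, the main aspartic protease of lysosomes, had 766 to 1174 CPM in LFH (median 1079.5) and 1348 to 2732 CPM in HFH (median 2248). No LFH animal reached the HFH range (log2 fold change 1.02 ± 0.14, adjusted p = 1.11e-07). With library size alone 26 of the 28 were higher and 0 lower. CTSK was not called (0.12 ± 0.11), and the proton pump subunit ATP6V0A1 was lower (-0.39 ± 0.12).

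Of 16 neutrophil genes 4 were higher and 0 lower (1 lower without HFH animal 47), a share of higher genes below the 28.0% of all profiles, and the defining S100A8, S100A9 and CSF3R were not called (0.38 ± 0.62, 0.27 ± 0.68 and -0.54 ± 0.36). The higher ones were the formyl peptide receptor FPR2 (3.23 ± 0.77), PGLYRP1 (1.003 ± 0.24), CYBB (0.89 ± 0.24) and CYBA (0.65 ± 0.19), the last a pair of oxidase subunits that macrophages also use. Of 29 T and natural killer cell genes 6 were higher, also a share below the 28.0% of all profiles, and 2 lower, against 13 higher with library size alone. CD8A, the co-receptor of cytotoxic T cells, had 0.497 to 5.01 CPM in LFH (median 3.17) and 2.48 to 19.8 CPM in HFH (median 6.65), with partial overlap (log2 fold change 1.53 ± 0.42, adjusted p = 0.00262). IL7R and IL2RG rose by 0.80 ± 0.28 and 0.77 ± 0.19, and the activation and checkpoint genes IL2RA, PDCD1 and CTLA4 by 2.82 ± 0.81, 2.92 ± 0.88 and 3.22 ± 0.83. CD3E went against them, from 138 to 219.6 CPM (median 175) to 43.7 to 92.99 CPM (median 76.3) (log2 fold change -1.31 ± 0.20, adjusted p = 7.59e-07), as did LAG3 (-2.06 ± 0.29), while the other chains of the same receptor, CD3D and CD3G, were not called (-0.32 ± 0.38 and -0.65 ± 0.28), nor were CD2, CD4 and GZMA (-0.15 ± 0.36, -0.09 ± 0.23 and -0.42 ± 0.55). The call of CD3G depended on the setting, since it was called lower without LFH animal 27 or 5 or HFH animal 61 or 88 (adjusted p = 0.0490, 0.0423, 0.0441 and 0.0179) and with 6 other settings, among them limma voom (-0.80, adjusted p = 0.0125). CD3E lay far above CD3D and CD3G, which averaged 2.25 and 6.57 CPM in LFH, and whether all its counts come from T cells was not tested.

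Of 14 B and plasma cell genes 2 were higher and 1 lower, both shares below those of all profiles, against 10 and 0 with library size alone. With limma voom 5 were higher, and with limma on the variance-stabilized values 4. The polymeric immunoglobulin receptor PIGR, which bile duct cells carry too, and POU2AF1, a B cell co-activator, were higher (0.79 ± 0.25 and 1.13 ± 0.27), and MS4A1, CD79B and JCHAIN were not called (0.49 ± 0.35, 0.68 ± 0.36 and 0.44 ± 0.25). Without LFH animal 64, 4 genes of this list were higher, JCHAIN among them (0.59, adjusted p = 0.0467). Of 11 dendritic cell genes 6 were higher and 1 lower. LY75 (1.92 ± 0.33), an endocytic receptor, FLT3 (1.31 ± 0.34), the receptor that maintains these cells, and the actin bundler FSCN1 (1.24 ± 0.19) rose, CLEC9A of cross-presenting cells fell (-1.03 ± 0.17), and CCR7 was not called (0.24 ± 0.40).

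Of 32 chemokines and receptors 12 were higher (37.5% against 28.0% of all profiles) and 2 lower. CCL2 had 0.209 to 1.63 CPM in LFH (median 0.58) and 14.6 to 67.3 CPM in HFH (median 31.9). All LFH animals were far below HFH (log2 fold change 5.80 ± 0.43, adjusted p = 1.37e-14). CCL3, which shares its counts with CCL18 and CCL3L1, rose by 3.81 ± 0.42, CCL22 by 4.86 ± 0.57 and CCL20 by 2.44 ± 0.66. CXCL17 (-1.99 ± 0.62, but -1.28 with adjusted p = 0.231 by limma voom) and XCL1, which shares counts with XCL2 (-1.61 ± 0.33), were lower, and CXCL10 was not called (-0.55 ± 0.62). Of 40 interleukin, tumour necrosis factor (TNF) family and inflammasome genes 21 were higher and 6 lower, the latter a share below the 21.7% of all profiles. TNF itself had 0.137 to 2.43 CPM in LFH (median 1.02) and 1.63 to 5.89 CPM in HFH (median 4.59), with slight overlap (log2 fold change 2.06 ± 0.40, adjusted p = 3.48e-05). The receptors TNFRSF19 and TNFRSF1B rose by 2.22 ± 0.19 and 1.10 ± 0.16 and the bacterial sensor NOD1 by 1.15 ± 0.16. The interleukin-6 receptor IL6R (-1.64 ± 0.30), the decoy receptor IL13RA2 (-2.81 ± 0.47) and TNFRSF11B (-2.49 ± 0.59), which captures RANK ligand, were lower. IL1B was not called (-0.11 ± 0.34).

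Of 20 interferon response genes 10 were higher and 0 lower, with a median of 0.50 and a summed level of 800.2 to 1072 CPM in LFH and 1350.2 to 1907 CPM in HFH. MX1, an antiviral GTPase, had 4.78 to 16.3 CPM in LFH (median 9.04) and 25.7 to 41.2 CPM in HFH (median 33.98). The groups were apart (log2 fold change 1.72 ± 0.29, adjusted p = 3.42e-06). IFNAR2, with the counts of IL10RB, rose by 0.78 ± 0.14, and ISG15, with the counts of AGRN, by 1.21 ± 0.19. Of 20 antigen presentation genes 6 were higher, a share near the 28.0% of all profiles, and 2 lower, and their summed levels overlapped, with 6564 to 7630.4 CPM in LFH and 5931 to 8362 CPM in HFH. With library size alone 17 were higher and 0 lower. CD74, the class II invariant chain, went from 328 to 1061 CPM (median 489.9) to 754 to 1696 CPM (median 964), with overlap (log2 fold change 0.97 ± 0.22, adjusted p = 3.67e-04), and HLA-DPA1 and HLA-DMB rose by 1.85 ± 0.38 and 0.95 ± 0.21. HLA-DMA and the proteasome activator PSME1 were lower (-0.54 ± 0.16 and -0.58 ± 0.08), and B2M and PSMB9 of the class I pathway were not called (-0.19 ± 0.11 and 0.09 ± 0.19).

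Of 29 interstitial matrix genes 18 were higher and 3 lower, with a median of 1.31, and of 18 basement membrane genes 13 were higher and 3 lower, with a median of 1.12. The summed level of the interstitial list was 5338 to 10370.3 CPM in LFH and 4759 to 10002 CPM in HFH, with overlap, and that of the basement membrane list 1011 to 1347 CPM in LFH and 1821 to 3682 CPM in HFH, without overlap. THBS1, thrombospondin-1, which activates latent TGF-beta, had 9.41 to 19.7 CPM in LFH (median 14.04) and 84.2 to 223 CPM in HFH (median 173). Its groups were far apart (log2 fold change 3.48 ± 0.28, adjusted p = 2.45e-13). LUM, a collagen-binding proteoglycan, had 136 to 295 CPM in LFH (median 194) and 244 to 825 CPM in HFH (median 491), with overlap (log2 fold change 1.31 ± 0.22, adjusted p = 4.04e-06), and MGP, the matrix Gla protein, had 6.89 to 65.1 CPM in LFH (median 40.8) and 55.9 to 1001 CPM in HFH (median 289) (log2 fold change 3.40 ± 0.51, adjusted p = 3.80e-07). CCDC80, a matrix adhesion protein, rose by 2.70 ± 0.26. Fibronectin FN1, which hepatocytes also secrete into plasma, was lower (-0.86 ± 0.30), though not called without LFH animal 5 (-0.70, adjusted p = 0.0538), as were fibrillin FBN1 (-0.94 ± 0.28) and ECM1 (-0.76 ± 0.11).

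In the basement membrane, COL4A2, a chain of type IV collagen, had 83.4 to 118 CPM in LFH (median 112) and 258 to 992 CPM in HFH (median 421). No LFH animal reached HFH (log2 fold change 2.20 ± 0.19, adjusted p = 1.65e-12). The laminin chains LAMB3 and LAMC1 rose by 1.83 ± 0.19 and 1.16 ± 0.17, the profile that agrin (AGRN) shares with ISG15, already given under interferon response, by 1.21 ± 0.19 and nidogen NID1 by 0.48 ± 0.16, while LAMC3 (-2.11 ± 0.47), LAMA3 (-1.02 ± 0.20) and COL4A6 (-2.04 ± 0.40) fell. Over whole families by symbol, 5 of 10 collagens were higher and 2 lower, 6 of 8 laminins higher and 2 lower, 5 of 12 integrins higher and 0 lower, and 8 of 12 ADAMTS proteases higher and 0 lower.

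Of 34 proteases, inhibitors and cross-linking enzymes 20 were higher and 3 lower, with a median of 1.02, while their summed level was 2390.2 to 3853 CPM in LFH and 2009.8 to 2829.7 CPM in HFH. MMP11, stromelysin-3, had 1.68 to 4.58 CPM in LFH (median 3.08) and 16.3 to 423 CPM in HFH (median 40.8). HFH animal 6 held the upper end, and the other HFH animals also lay above LFH (log2 fold change 4.95 ± 0.51, adjusted p = 1.18e-10). MMP2 and TIMP2 rose by 1.38 ± 0.46 and 1.40 ± 0.15, MMP2 not called with limma voom (1.05, adjusted p = 0.0592). The collagen hydroxylase P4HA3 (-1.18 ± 0.40), transglutaminase TGM2 (-1.03 ± 0.20) and TIMP3 (-0.44 ± 0.18) were lower and MMP9 was not called (0.20 ± 0.42). P4HA3 was not called without LFH animal 79 (-0.87, adjusted p = 0.0640), nor TIMP3 when any of 6 animals was left out, with adjusted p = 0.0865 without LFH animal 64.

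Of 16 tested stellate cell genes 3 were higher and 4 lower, against 28.0% and 21.7% of all profiles, so neither count stood out from the background, and the median of -0.15 became 0.42 with library size alone. PDGFRB, the platelet-derived growth factor receptor of stellate cells, had 27.1 to 44.9 CPM in LFH (median 33.5) and 57.5 to 209 CPM in HFH (median 114). All HFH animals were higher (log2 fold change 1.85 ± 0.21, adjusted p = 6.74e-10), as they were for tropomyosin TPM1 (1.93 ± 0.12), and PDGFRA rose by 1.02 ± 0.19. LRAT, which stores retinol in quiescent stellate cells, had 60.9 to 96.4 CPM in LFH (median 76.5) and 10.7 to 53.04 CPM in HFH (median 34.1) and fell without overlap (log2 fold change -1.19 ± 0.25, adjusted p = 1.20e-04). ACTA2, the smooth muscle actin of myofibroblasts, had 17.5 to 197 CPM in LFH (median 107) and 61.4 to 275 CPM in HFH (median 114). The groups overlapped (log2 fold change 0.45 ± 0.37, adjusted p = 0.33), with a call as higher with library size alone (1.02, adjusted p = 0.0261), and TAGLN was not called either (-0.60 ± 0.34), but was called lower without HFH animal 88 (-0.86, adjusted p = 0.0341).

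Of 42 TGF-beta, PDGF and WNT genes 16 were higher and 10 lower, the latter a share near the 21.7% of all profiles. TGFB3 had 4.10 to 8.56 CPM in LFH (median 5.40) and 12.5 to 111 CPM in HFH (median 50.5) (log2 fold change 3.44 ± 0.42, adjusted p = 5.10e-09) and the WNT-inducible secreted protein CCN5 had 2.67 to 10.2 CPM in LFH (median 4.17) and 29.4 to 213 CPM in HFH (median 82.0) (log2 fold change 4.32 ± 0.44, adjusted p = 7.83e-11), both without overlap. The activin chain INHBB and the latency protein LTBP2 rose by 3.67 ± 0.36 and 3.87 ± 0.41. The hepatocyte activin chain INHBC (-1.55 ± 0.27), the co-receptor TGFBR3 (-0.88 ± 0.13) and CCN2 (-1.11 ± 0.36), a profibrotic target of TGF-beta and YAP, were lower. AXIN2, a feedback target of WNT signalling, had 27.1 to 59.8 CPM in LFH (median 50.4) and 9.30 to 23.7 CPM in HFH (median 18.2) and was lower in every HFH animal (log2 fold change -1.55 ± 0.27, adjusted p = 4.97e-06).

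Bile duct genes were raised almost throughout, with 16 of 19 cholangiocyte genes higher and 1 lower and a median of 2.38. Their summed level was 897 to 1403 CPM in LFH and 1965 to 3827 CPM in HFH, without overlap. EPCAM, an adhesion molecule of biliary and progenitor cells, had 9.04 to 24.6 CPM in LFH (median 13.5) and 103 to 391 CPM in HFH (median 179.9) (log2 fold change 3.75 ± 0.28, adjusted p = 1.62e-14). KRT7 had 4.90 to 28.8 CPM in LFH (median 8.98) and 24.1 to 310.0 CPM in HFH (median 117), with overlap from LFH animal 27 (log2 fold change 3.73 ± 0.43, adjusted p = 1.16e-09), and KRT19 rose by 1.22 ± 0.22, the secretin receptor SCTR by 3.04 ± 0.45 and the tight junction protein CLDN4 by 4.93 ± 0.31. The growth factor receptor FGFR2 was the lower one (-0.55 ± 0.18), and without HFH animal 18 there were 2 lower. Of 9 tested keratins over the whole family 6 were higher and 1 lower. HFH animals 6 and 61, which had the lowest hepatocyte sums, had the highest cholangiocyte sums, at 3827 and 3605 CPM.

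Of 17 tested endothelial genes 6 were lower and 2 higher, against 21.7% and 28.0% of all profiles, and the median of -0.22 turned to 0.33 with library size alone. LYVE1, the hyaluronan receptor of sinusoids, had 216 to 376 CPM in LFH (median 260.3) and 28.1 to 104 CPM in HFH (median 85.1). The groups were separate (log2 fold change -1.86 ± 0.22, adjusted p = 2.59e-09). DNASE1L3 and OIT3 of the same cells were at -1.96 ± 0.36 and -0.78 ± 0.22, OIT3 no longer called with library size alone (-0.23, adjusted p = 0.316). CD34 and VWF, which mark continuous vessels, were higher (1.61 ± 0.30 and 0.68 ± 0.23), VWF no longer without HFH animal 61 (0.50, adjusted p = 0.0619), and the pan-endothelial PECAM1 was not called (0.06 ± 0.09), except with library size alone (0.60, adjusted p = 9.81e-05).

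Of 10 hepatocyte markers 9 were lower and 0 higher, with a median of -0.89, and their sum was 135866 to 264292 CPM in LFH and 34500.5 to 112987 CPM in HFH. ALB, albumin, had 68645 to 171398 CPM in LFH (median 118741) and 8482 to 62665 CPM in HFH (median 40408). All HFH animals were below LFH (log2 fold change -1.60 ± 0.33, adjusted p = 8.21e-05). The asialoglycoprotein receptor ASGR2 was at -0.94 ± 0.13, and SLC2A2, the hepatocyte glucose carrier, was not called (-0.29 ± 0.29). Among 9 markers of other organs the higher ones were MYH7 (2.77 ± 0.62) and the erythroid HBA1, with the counts of HBA2 (2.39 ± 0.63), and ALAS2 (2.90 ± 0.68). Their part in the other differences was not tested.

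**Figure D4:**
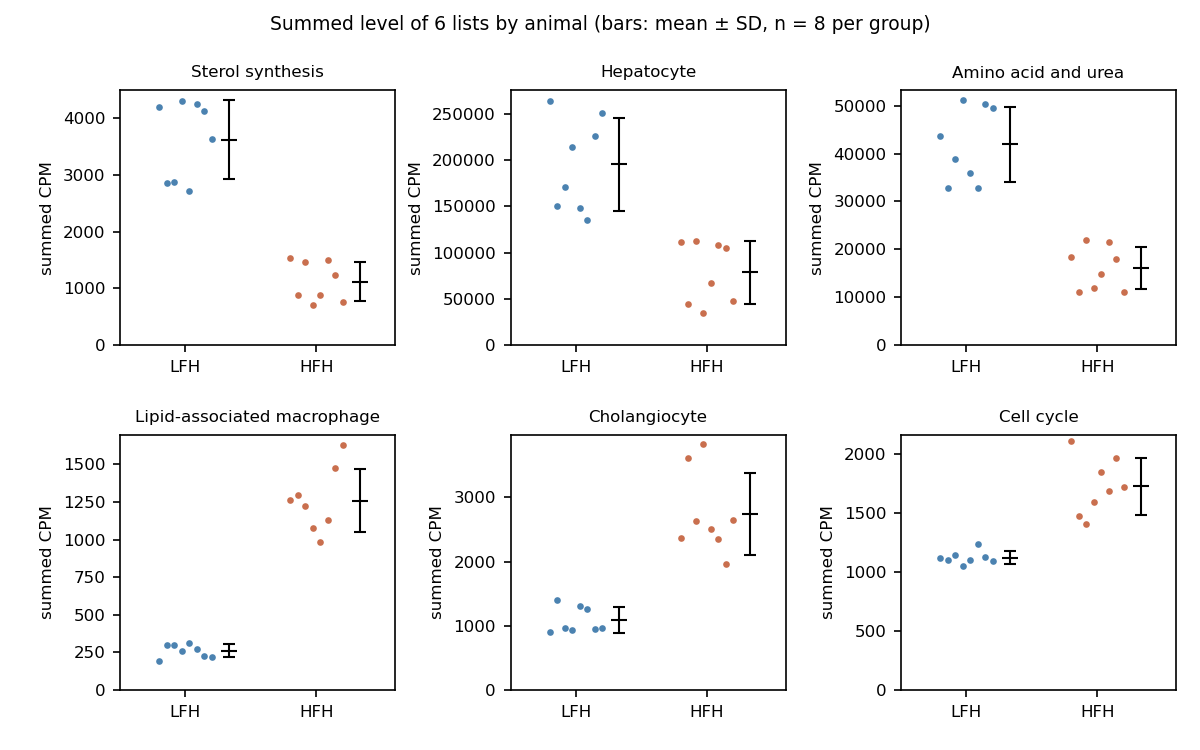
Each panel plots the summed CPM of 1 list in each animal (8 per group) with the mean and SD beside the points, on axes that start at 0. The sterol synthesis, hepatocyte and amino acid sums are lower in HFH, and the lipid-associated macrophage, cholangiocyte and cell cycle sums are higher, with cholangiocyte sums of 897 to 1403 CPM in LFH and 1965 to 3827 CPM in HFH.

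On the TMM scale, genes of proteins that hepatocytes secrete into plasma were lower for the most part. Of 15 acute phase genes 10 were lower and 1 higher (median -0.85), of 13 complement genes 7 and 2 (median -0.66), and of 19 coagulation genes 11 and 6 (median -0.64), the 6 a share near the 28.0% of all profiles. With library size alone the lower and higher counts were 6 and 3 for acute phase, 5 and 3 for complement and 6 and 6 for coagulation. HAMP, the iron hormone hepcidin, had 385 to 1669 CPM in LFH (median 857) and 67.3 to 1019 CPM in HFH (median 158), where HFH animal 88 lay well inside the LFH range (log2 fold change -1.68 ± 0.56, adjusted p = 0.0115). The metalloreductase STEAP4 and SERPINA3 were at -1.90 ± 0.29 and -1.26 ± 0.22, and CRP, with at most 6.42 CPM in any of the 16 animals, at -1.44 ± 0.39. C8B of the membrane attack complex had 858 to 1449 CPM in LFH (median 1126) and 114 to 515 CPM in HFH (median 357). Every HFH animal was lower (log2 fold change -1.74 ± 0.23, adjusted p = 3.08e-08). C4BPB (-1.46 ± 0.18), the lectin COLEC10 with the counts of MAL2 (-0.86 ± 0.12) and CFB (-0.66 ± 0.20) were lower, while FCN1 (1.40 ± 0.45) and CFD (0.92 ± 0.27), made by myeloid cells and adipocytes, were higher and C7 was not called (0.41 ± 0.65). F9, coagulation factor IX, had 1067 to 1527 CPM in LFH (median 1170.2) and 307 to 709 CPM in HFH (median 528), without overlap (log2 fold change -1.23 ± 0.17, adjusted p = 1.48e-07), CPB2 was at -1.15 ± 0.17, vitronectin VTN at -0.99 ± 0.17 and PLG, with the counts of its relatives PLGLB1 and PLGLB2, at -0.66 ± 0.24. The PLG profile was not called without HFH animal 61 or 88 (-0.57, adjusted p = 0.0524 and 0.0523). The higher coagulation genes included the protease-activated receptor F2RL1 (2.84 ± 0.24) and the inhibitor TFPI2 (2.23 ± 0.31).

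Of 32 phase I profiles of drug metabolism 19 were lower and 3 higher (median -0.85). CYP1A2, which oxidises caffeine and aromatic amines, had 2397 to 4172 CPM in LFH (median 3035) and 55.3 to 307 CPM in HFH (median 192). No HFH animal came near LFH (log2 fold change -4.20 ± 0.44, adjusted p = 1.24e-10). The profile shared by ADH1A, ADH1B and ADH1C (-1.67 ± 0.19) and POR (-1.41 ± 0.19), the electron donor of all microsomal P450s, were lower, and the profile shared by CYP3A4, CYP3A5, CYP3A7 and CYP3A43 was not called (-0.56 ± 0.28), except without HFH animal 14 (-0.68, adjusted p = 0.0478). The 3 higher were AKR1B10 (2.36 ± 0.42), CYP1B1 (2.47 ± 0.63) and XDH (0.81 ± 0.15), known outside hepatocytes as well. Of 19 conjugating enzymes 8 were lower and 2 higher, and their median of -0.44 became 0.11 with library size alone. UGT1A6 (-1.47 ± 0.17), NAT8 with the counts of NAT8B (-1.08 ± 0.17) and GSTO1 (-0.96 ± 0.16) were lower. GSTP1, a glutathione transferase of bile duct and proliferating cells, had 30.6 to 62.2 CPM in LFH (median 47.6) and 113 to 247 CPM in HFH (median 151.8). It was higher in every HFH animal (log2 fold change 1.86 ± 0.21, adjusted p = 5.83e-10), UGT8 rose by 1.70 ± 0.53, and SULT2A1 was not called (-0.60 ± 0.30), except without HFH animal 47 (-0.75, adjusted p = 0.0417) and with DESeq2 on the 16 animals (-0.61, adjusted p = 0.0484).

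Of 29 antioxidant genes, of interest in a study of vitC, 11 were higher and 11 lower, against 28.0% and 21.7% of all profiles, with a median of 0.08. With library size alone 16 were higher and 5 lower. Their summed level was 23933 to 30398 CPM in LFH and 8715 to 15056 CPM in HFH, lower in every HFH animal. By group medians, catalase alone held the larger part of this sum, whose medians were 26380 CPM in LFH and 11266 CPM in HFH. Among the lower ones CAT, catalase, had 16049.7 to 23248 CPM in LFH (median 18501) and 4099 to 9902 CPM in HFH (median 6266). The groups did not overlap (log2 fold change -1.51 ± 0.23, adjusted p = 4.81e-07). SOD1, the copper-zinc superoxide dismutase, had 2434 to 3375 CPM in LFH (median 2595) and 814 to 1191 CPM in HFH (median 1033) (log2 fold change -1.39 ± 0.13, adjusted p = 1.99e-11), peroxiredoxin PRDX5 was at -1.42 ± 0.13 and GPX4, which protects membranes from lipid peroxides, at -0.86 ± 0.13. Among the higher ones PRDX2, a peroxiredoxin most abundant in red cells, had 14.04 to 43.5 CPM in LFH (median 22.5) and 48.9 to 316 CPM in HFH (median 118) (log2 fold change 2.50 ± 0.39, adjusted p = 1.06e-06). The extracellular SOD3 (1.51 ± 0.37), the metallothionein MT3 (1.80 ± 0.22) and GPX8 of the endoplasmic reticulum (0.99 ± 0.21) rose as well.

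Amino acid metabolism was lower almost throughout, with 32 of 39 genes lower, 2 higher and 20 of the lower ones without overlap, and a median of -1.05. Among all profiles 21.7% were lower, 28.0% were higher and 8.04% were lower without overlap. TDO2, which opens tryptophan breakdown, had 659 to 1105 CPM in LFH (median 993) and 197 to 362 CPM in HFH (median 303), with all HFH animals lower (log2 fold change -1.71 ± 0.15, adjusted p = 2.53e-12), and BCKDHB of branched-chain ketoacid oxidation was at -1.19 ± 0.13. ODC1, the first enzyme of polyamine synthesis, and the carrier SLC7A8 were the higher ones (0.64 ± 0.11 and 0.63 ± 0.23), SLC7A8 no longer without HFH animal 18 (0.52, adjusted p = 0.0617).

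Of 47 glucose and glycogen genes 17 were lower and 13 higher, the latter a share near the 28.0% of all profiles, and the median of -0.10 became 0.45 with library size alone. SORD, which makes fructose from sorbitol, had 2438 to 4935 CPM in LFH (median 3239) and 336 to 1005 CPM in HFH (median 837), without overlap (log2 fold change -2.34 ± 0.27, adjusted p = 1.13e-09). The glucose-6-phosphate carrier SLC37A4, needed for glucose release, and PDP2, which activates pyruvate dehydrogenase, were at -1.67 ± 0.17 and -1.21 ± 0.12. Hexokinase HK2 (1.08 ± 0.24), aldolase ALDOA (0.94 ± 0.14) and platelet phosphofructokinase PFKP (1.12 ± 0.16), isoforms typical of tissues other than liver, rose. SLC2A8, a sugar carrier of inner membranes, had 0.946 to 3.82 CPM in LFH (median 2.51) and 6.46 to 16.6 CPM in HFH (median 9.31) (log2 fold change 2.02 ± 0.26, adjusted p = 1.43e-08), and the fructose carrier SLC2A5 rose by 3.57 ± 0.74.

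Of 19 genes of insulin, growth hormone and IGF signalling 6 were lower and 4 higher, against 21.7% and 28.0% of all profiles, and the median of -0.08 became 0.54 with library size alone. IRS1, the docking protein of the insulin receptor, had 96.2 to 164 CPM in LFH (median 111) and 40.1 to 95.2 CPM in HFH (median 66.8). All HFH animals were lower by a narrow margin (log2 fold change -0.80 ± 0.20, adjusted p = 6.88e-04). The glucagon receptor GCGR (-1.26 ± 0.21) and SOCS2, with the counts of CRADD (-0.82 ± 0.16), were lower, and AKT1 (0.88 ± 0.09), IGFBP6 (2.76 ± 0.39) and the phosphatase PTPN1 (0.42 ± 0.12) higher. Of 30 hepatic and circadian transcription factors 15 were lower and 2 higher, with a median of -0.42 against 0.13 with library size alone. RXRA, the partner of the bile acid, oxysterol and fatty acid receptors, had 769 to 1126 CPM in LFH (median 902) and 278 to 533 CPM in HFH (median 442) and fell without overlap (log2 fold change -1.14 ± 0.11, adjusted p = 4.28e-11). KLF15 and the clock repressor CRY1 were at -1.16 ± 0.19 and -0.86 ± 0.13, the fatty acid receptors PPARG and PPARD rose by 0.64 ± 0.19 and 0.52 ± 0.12, and NR1D1 was not called (-0.14 ± 0.17).

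The endoplasmic reticulum stress list was mostly uncalled, with 6 of 25 higher and 3 lower, both shares below those of all profiles, but with library size alone 19 were higher and 1 lower. CHAC1, a glutathione-degrading target of the integrated stress response, had 0 to 0.438 CPM in LFH (median 0) and 0.584 to 6.13 CPM in HFH (median 4.43). Each HFH animal stood above LFH, where the median animal had no count (log2 fold change 5.76 ± 0.68, adjusted p = 2.36e-09). ATF3 had 37.8 to 80.1 CPM in LFH (median 54.6) and 98.5 to 208 CPM in HFH (median 181) (log2 fold change 1.57 ± 0.27, adjusted p = 5.00e-06), and HSPH1 rose by 0.69 ± 0.24. The profile of HSPA1A and HSPA1B (-1.11 ± 0.32), ERO1B (-0.96 ± 0.19) and PDIA4 (-0.38 ± 0.15, not called when any of 7 animals was left out, adjusted p up to 0.0743 without HFH animal 88) were lower, and the core genes ATF4, DDIT3 and HSP90B1 were not called (-0.19 ± 0.11, 0.35 ± 0.18 and -0.11 ± 0.15). DDIT3 was called higher without HFH animal 6 (0.43, adjusted p = 0.0406), with upper-quartile scaling (0.42, adjusted p = 0.0451) and with library size alone (0.89, adjusted p = 9.29e-05).

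Proliferation genes rose, with 45 of 56 cell cycle genes higher, 1 lower and 36 of the higher ones without overlap, and a median of 2.17. Among all profiles 28.0% were higher, 21.7% were lower and 9.08% were higher without overlap. Their summed level was 1056 to 1237 CPM in LFH and 1405 to 2112 CPM in HFH. TK1, thymidine kinase of S phase, had 0.398 to 3.07 CPM in LFH (median 1.11) and 9.82 to 37.5 CPM in HFH (median 22.7). The groups were far apart (log2 fold change 4.09 ± 0.30, adjusted p = 9.56e-15). CDK1, the kinase of mitotic entry, had 0 to 0.447 CPM in LFH (median 0.0523) and 0.175 to 1.37 CPM in HFH (median 0.746), with overlap at low counts (log2 fold change 2.52 ± 0.81, adjusted p = 0.00891). CDCA8 of the chromosomal passenger complex rose by 3.16 ± 0.29, cyclin CCNA2 by 5.0003 ± 0.59 and the inhibitor CDKN2C by 2.11 ± 0.19. CENPM was the lower one (-0.50 ± 0.18), but not without LFH animal 25 or HFH animal 1 (adjusted p = 0.0634 and 0.0526), and without LFH animal 79 or HFH animal 18 there were 2 lower. Cyclin CCND1 was not called (0.39 ± 0.18), but its call depended on the setting. It was called higher without LFH animal 79, LFH animal 5 or HFH animal 9 (adjusted p = 0.0471, 0.0479 and 0.0345), with upper-quartile scaling (0.45, adjusted p = 0.0281), with library size alone (0.93, adjusted p = 1.18e-05), with the 16 animals alone (adjusted p = 0.0431 with edgeR and 0.0337 with DESeq2) and with limma voom (0.43, adjusted p = 0.0496). By family, 15 of 19 kinesins, the motors of the spindle and of transport, were higher and 0 lower.

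The remaining families were grouped by symbol alone, and their counts stand against 28.0% of all profiles higher and 21.7% lower. Of 7 annexins 6 were higher and 0 lower, of 8 cathepsins 5 and 0, of 10 C-type lectins 7 and 1, of 8 TNF receptors 5 and 1, of 6 toll-like receptors 4 and 0, and of 28 potassium channels 12 and 0. Among carriers, 46 of 124 solute carriers outside the mitochondrial SLC25 family were higher and 23 lower, and 8 of 17 ABC transporters higher and 2 lower. The share of solute carriers that were lower was under the 21.7% of all profiles. Of 17 cytochrome P450 profiles over the whole family 9 were lower and 2 higher, of 9 glutathione transferases 5 and 1, of 11 aldehyde dehydrogenases 6 and 2, and of 9 peroxins 5 lower and 0 higher, the peroxin median of -0.29 becoming 0.25 with library size alone. The cytosolic ribosome, with 4 of 39 lower and 2 higher, was mostly uncalled, but with library size alone its median went from -0.00 to 0.55 and 35 were higher.

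A question the design allows is whether the continuous feed contrast differed from that in animals that had all begun on the high fat, low vitC feed (50 mg per kg) and of which some were changed at week 16. At 2000 mg vitC per kg in the second 16 weeks this sets HFH minus LFH beside HFL/HFH (n = 6) minus HFL/LFH (n = 6), and at 50 mg beside HFL/HFL (n = 10) minus HFL/LFL (n = 6). These contrasts share no animals, but they also differ in vitC, so the time on feed and vitC cannot be told apart. The difference of the 2 contrasts, tested in the same edgeR fit, was called in 8 profiles (0.112%) at high vitC and in 437 (6.11%) at low vitC, where 209 differences were positive (2.92%) and 228 negative (3.19%). An unadjusted p under 0.05 was reached by 486 and 1609 profiles.

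The 8 profiles at high vitC all had a larger change in the continuous feed contrast. As HFH minus LFH is a term of the tested difference, that count is no separate result. KRT23 differed by 5.09 ± 0.83 (adjusted p = 0.00165) on the log2 scale, that is 9.55 for HFH minus LFH and 4.46 for HFL/HFH minus HFL/LFH. PPP1R36, which had no count in LFH, was also called, but its fitted difference depends on the prior count and is no bound (7.12, and 3.41 with limma voom). GRIK2, a kainate receptor subunit, differed by 4.58 ± 0.85 (adjusted p = 0.00569), TREM2 by 4.12 ± 0.78 (adjusted p = 0.00672), TGFB3 by 2.88 ± 0.59 (adjusted p = 0.0189), LGALS3 by 1.99 ± 0.41 (adjusted p = 0.0189), which was not called with the 4 groups alone (adjusted p = 0.111), the membrane receptor PAQR4 by 2.40 ± 0.51 (adjusted p = 0.0251) and STARD4 by -2.02 ± 0.34 (adjusted p = 0.00165). For TREM2 the contrast was 8.22 in continuous feeding and 4.10 after the switch. GRIK2 itself had 0 to 0.172 CPM in LFH (median 0) and 0.806 to 1.97 CPM in HFH (median 1.51), a difference between groups at very low counts. With limma voom and sample quality weights 6 symbols were called, and KRT23, PPP1R36, TREM2, TGFB3 and PAQR4 were not among them (adjusted p = 0.159, 0.162, 0.208, 0.123 and 0.101). PAQR4 also lost its call without LFH animal 27, HFH animal 61 or HFH animal 6 (adjusted p = 0.0560, 0.0596 and 0.0593).

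At low vitC, 361 of the 437 profiles had the larger change in the continuous feed contrast, and 373 were also called between HFH and LFH. HFH minus LFH is itself a term of the difference, so these counts are no separate result. The opposite sign of the contrasts was seen in 166. The smallest adjusted p were those of KRT23 (difference 7.10 ± 0.74, adjusted p = 2.41e-08), LGALS3 (difference 2.59 ± 0.38, adjusted p = 9.32e-05), MMP12 (difference 6.40 ± 0.97, adjusted p = 1.49e-04, but 0.0550 with limma voom), TREM2 (difference 4.49 ± 0.73, adjusted p = 4.65e-04) and TGFB3 (difference 3.26 ± 0.55, adjusted p = 7.10e-04), and 10 of 30 complex I and 5 of 9 cytochrome c oxidase genes were among the 437, against 6.11% of all profiles. Of the 14 sterol synthesis genes 1 was, a share near that background, and the list median was -1.77 in the continuous feed contrast, -1.72 at high vitC and -1.34 at low vitC. The lipid-associated macrophage medians were 2.34, 1.94 and 2.11 in the same order, and those of the cholangiocyte list 2.38, 1.63 and 1.28.

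**Figure D5:**
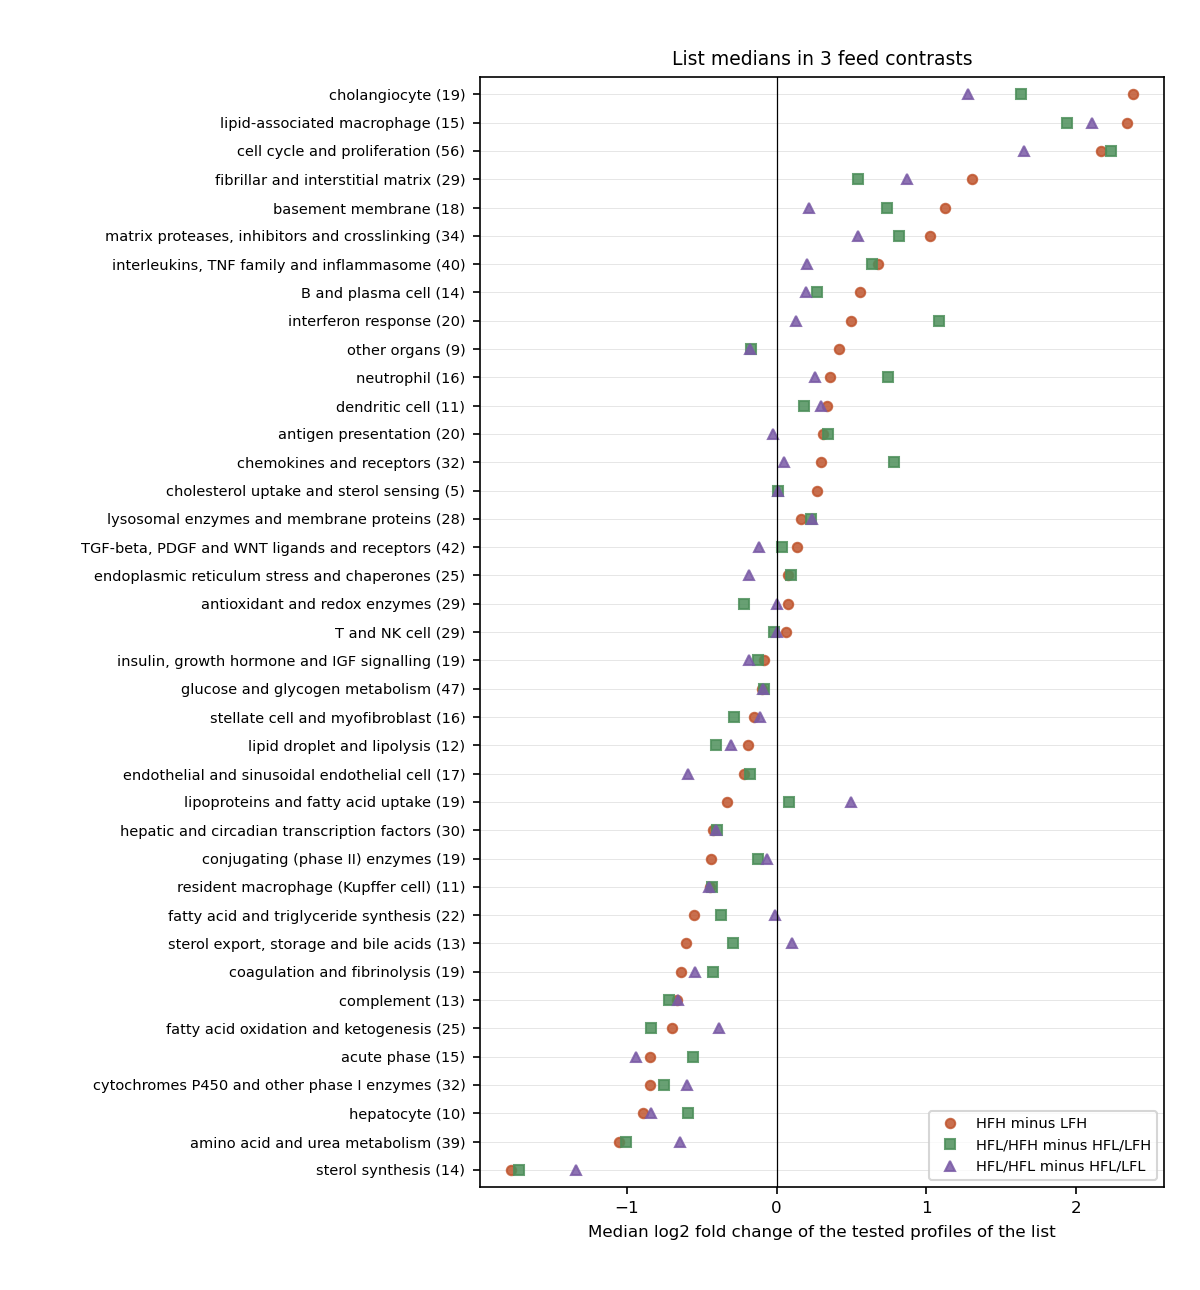
Each row is a gene list (number of tested profiles in brackets), and the marks are its median log2 fold change in 3 contrasts of high fat against low fat feed, continuous (circles), switched at high vitC (squares) and switched at low vitC (triangles). In that order the sterol synthesis medians are -1.77, -1.72 and -1.34, the lipid-associated macrophage medians 2.34, 1.94 and 2.11, and the cholangiocyte medians 2.38, 1.63 and 1.28.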

How the data were processed

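RNA-sequencing data of 44 livers, 1 library per animal, were used as deposited. The submitters' processing notes name bcl2fastq 2.19, Trimmomatic 0.38.0, HISAT2 2.1.0, StringTie 2.1.1 and DESeq2. By the study's methods, alignment was to Cavpor3.0 and orthologue symbols came from BioMart. The authors deposited a table of raw whole-number counts by human symbol and a table of the same libraries on a log2 scale after DESeq2's variance stabilization. How StringTie output became counts is not given in the sources used here, and no strand setting is stated, so overlapping or antisense genes may share reads.

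Counts were fitted in R 4.3.3 with edgeR 4.0.16 (TMM, prior count 0.125, quasi-likelihood F test, two-sided, 1 mean per group, all animals) over 7750 of 11967 symbols with a total of at least 200, with Benjamini-Hochberg adjusted p under 0.05 as the threshold. The fit was tested on simulated data. Replicates are separate animals and no batch is labelled. Genes were placed in 39 lists and 62 symbol families, described by counts and medians without set tests. The members, the gene lists and the naming rule were set with earlier results of these data known. The rule names the anchors of each list (95 of 190 were tested, the others were not analysed here), up to 3 profiles per list and direction with the smallest adjusted p, up to 12 per direction with the largest change, and up to 5 per difference test. Named outside it, after their values were seen, were the sterol synthesis genes that the rule did not name, ELOVL2, LPIN2, GPAM, DGAT2, FADS1, ME1, FABP4, CYBA, IL2RA, PDCD1, CTLA4, CD3D, CD3G, CCL22, MYH7, SLC2A5, CCNA2, PAQR4 and the erythroid genes of the closing section. Some genes that the rule names are not reported here.

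Alternatives were RLE, upper-quartile and library size scaling, no filter, filterByExpr, identical symbols taken once, the compared groups alone, DESeq2 1.42.0, limma 3.58.1 (voom with sample weights, and on the variance-stabilized values) and leaving out each animal. Coordinates and promoter motifs were not used here, as the annotation at hand is of another build than Cavpor3.0 and holds no sequence.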

Additional observations from a re-analysis of the deposited data

Results flagged for a closer look

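In 15 of 164 groups of 8 values, 1 animal stood apart from the other 7 by Dixon's criterion, that is by a gap of more than 0.526 of the whole range. For normally distributed values chance alone gives this in about 1 of 20 groups. Whether the values here are so distributed was not tested, and some CPM are 0, so that rate need not hold for them. ADRA1A was highest in HFH animal 9, at 1.09 CPM against 0 to 0.382 in the other 7 (gap 0.648 of the range). CHAC1 was highest in LFH animal 5, at 0.438 CPM against 0 to 0.0994 in the other 7 (gap 0.773 of the range). CTSD was lowest in LFH animal 79, at 766 CPM against 1037 to 1174 in the other 7 (gap 0.665 of the range). GFI1B was highest in LFH animal 56, at 0.688 CPM against no count in the other 7 (gap 1 of the range). GFI1B was highest in HFH animal 9, at 23.3 CPM against 0.208 to 5.22 in the other 7 (gap 0.783 of the range). GRIK2 was highest in LFH animal 56, at 0.172 CPM against no count in the other 7 (gap 1 of the range). HAMP was highest in HFH animal 88, at 1019 CPM against 67.3 to 399 in the other 7 (gap 0.652 of the range). HBA1 was highest in HFH animal 9, at 12826 CPM against 902 to 6403 in the other 7 (gap 0.539 of the range). KRT23 was highest in LFH animal 92, at 0.335 CPM against 0 to 0.105 in the other 7 (gap 0.686 of the range). KRT7 was highest in LFH animal 27, at 28.8 CPM against 4.90 to 11.9 in the other 7 (gap 0.708 of the range). LYVE1 was highest in LFH animal 56, at 376 CPM against 216 to 286 in the other 7 (gap 0.563 of the range). MMP11 was highest in HFH animal 6, at 423 CPM against 16.3 to 131 in the other 7 (gap 0.719 of the range). PLIN2 was highest in HFH animal 47, at 352 CPM against 142 to 213 in the other 7 (gap 0.659 of the range). SOD1 was highest in LFH animal 79, at 3375 CPM against 2434 to 2786 in the other 7 (gap 0.626 of the range). The total count was highest in LFH animal 5, at 31655787 against 23153453 to 26589552 in the other 7 (gap 0.596 of the range). HFH animal 9 had the highest value of HBA1, GFI1B and ADRA1A within HFH. For ADRA1A, KRT23, CHAC1 and GRIK2 the values apart were low, and the groups remained separate.

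The feed contrast in continuous feeding differed from that after a switch of feed, as tested with edgeR in the report, in 8 symbols at high vitC and 458 symbols at low vitC. At high vitC the differences, on the log2 scale, were STARD4 (-2.02), KRT23 (5.09), PPP1R36 (7.12), GRIK2 (4.58), TREM2 (4.12), TGFB3 (2.88), LGALS3 (1.99) and PAQR4 (2.40). At low vitC those with the smallest adjusted p or with values given in the report were KRT23 (7.10), LGALS3 (2.59), MMP12 (6.40), TREM2 (4.49), TGFB3 (3.26), PPP1R36 (7.002), STARD4 (-1.81), GRIK2 (4.51), CCN5 (3.01), FABP5 (2.16), ADRA1A (-4.57), EPCAM (1.59), THBS1 (1.605), COL4A2 (1.11), APOA2 (-1.13), PLIN2 (1.59), PNPLA3 (-3.99), CROT (-0.93), PDGFRB (1.02), MMP11 (2.15), TK1 (1.29) and SCD5 (1.92). The fitted differences of PPP1R36 depend on the prior count, as it had no count in LFH, and are no bounds. Several of the calls at low vitC were lost in other settings. MMP11 fell to 1.15 (adjusted p = 0.152) without HFH animal 6 and to 0.98 (0.524) with limma voom, and was also not called without LFH animal 25, LFH animal 27 or HFH animal 61 (adjusted p = 0.0503, 0.0518 and 0.0591) or with the 4 groups alone (0.0571). SCD5 lost its call when any of 9 animals was left out (adjusted p = 0.0557 to 0.111, the highest without HFH animal 6), with the 4 groups alone (0.0774) and with limma voom (0.317). TK1 lost it without LFH animal 27, 79 or 46 or HFH animal 18 or 47 (adjusted p = 0.0537 to 0.0628) and with limma voom (0.204), and PDGFRB without HFH animal 61 or 6 (adjusted p = 0.0547 and 0.0560). With limma voom MMP12, ADRA1A, PLIN2 and PNPLA3 were not called either (adjusted p = 0.0550, 0.164, 0.0784 and 0.151). The switched groups also differ from LFH and HFH in vitC, and the parts of vitC and time on feed cannot be told apart.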

How the results depend on the processing

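The count of called symbols was 3558 to 5321 over the alternatives and 3575 to 3842 with 1 animal left out (3822 as reported). Those higher ranged over 1993 to 2146 and those lower over 1578 to 1696 with 1 animal left out. With library size alone 4844 symbols were higher and 477 lower, as this scaling moves the median of all profiles up by 0.55, and 9 of 39 list medians and 14 of 62 family medians changed sign. Called profiles in the lists numbered 534 to 600 (529 to 548 with 1 animal left out), and 19 to 20 list medians lay above the median of all profiles (17 to 20). The difference test at high vitC called 20 symbols with DESeq2 on all animals, 6 with limma voom and 7 to 10 with 1 animal left out, and that at low vitC 413 to 667 over the alternatives and 334 to 532 with 1 animal left out. No paired analysis was possible because each guinea pig was sampled for just 1 group.

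Of 9060 values recomputed for 292 named genes under 28 alternatives, 8814 kept direction and call, 159 lost and 41 gained a call, and 46 changed sign, in 27 genes. Of these 7 had been called (ATP6V0A1, CENPM, FGFR2, HLA-DMA, PDIA4, TIMP3, UROD). With library size alone the sign turned for ACACA (0.52), APOE (0.326), ATF4 (0.354), ATP6V0A1 (0.153), B2M (0.348), CD2 (0.309), CD3D (0.227), CD4 (0.446), CENPM (0.0624), CIDEC (0.52), FECH (0.281), FGFR2 (0.0387), GZMA (0.0865), HLA-DMA (0.0097), HSD17B7 (0.184), HSP90B1 (0.42), IL1B (0.371), NR1D1 (0.43), PDIA4 (0.158), PDK4 (0.343), SLC2A2 (0.236), TIMP3 (0.136) and UROD (0.0845). With upper-quartile scaling it turned for ACACA (0.0449) and CIDEC (0.0189), with limma voom for ACACA (0.122), C7 (-0.309), CD2 (0.0997) and S100A9 (-0.303), and with limma on the variance-stabilized values for ACACA (0.0377) and C7 (-0.204). Leaving out 1 animal turned the sign for ACACA (-0.0962 to 0.175), C7 (-0.684 to 0.601), CD2 (-0.282 to 0.0039), CD4 (-0.206 to 0.0312), CIDEC (-0.161 to 0.0394), IL1B (-0.244 to 0.0859), MMP9 (-0.0381 to 0.404), S100A9 (-0.214 to 0.549) and SLC25A37 (-0.0567 to 0.38), given as the range over animals. The cause was not tested. With library size alone, calls were lost (adjusted p in brackets) for ACAT2 (0.124), AUP1 (0.769), CCN2 (0.252), CFB (0.41), CPT1A (0.0776), ECM1 (0.0873), FBN1 (0.215), FN1 (0.239), GPX4 (0.0989), HAMP (0.0852), HSPA1A (0.104), IRS1 (0.114), MVK (0.673), OIT3 (0.316), P4HA3 (0.108), PLG (0.479), PMVK (0.106), PSME1 (0.692) and SOCS2 (0.106), and gained as higher for ACTA2 (0.0261), CCND1 (1.18e-05), CD163 (0.0494), CD79B (0.00708), CTSK (3.98e-05), DDIT3 (9.29e-05), HBZ (0.0181), JCHAIN (0.0021), MS4A1 (0.0142), PECAM1 (9.81e-05), PSMB9 (0.00645) and SLC25A37 (0.00554). It also moved by over 1.5 times the number higher in the lists fatty acid oxidation and ketogenesis (2 to 6), lipid droplet and lipolysis (3 to 6), lysosomal enzymes and membrane proteins (12 to 26), T and NK cell (6 to 13), B and plasma cell (2 to 10), antigen presentation (6 to 17), stellate cell and myofibroblast (3 to 7), endothelial and sinusoidal endothelial cell (2 to 8), other organs (3 to 5), acute phase (1 to 3), cytochromes P450 and other phase I enzymes (3 to 7), conjugating (phase II) enzymes (2 to 4), amino acid and urea metabolism (2 to 6), glucose and glycogen metabolism (13 to 23), insulin / growth hormone and IGF signalling (4 to 10), hepatic and circadian transcription factors (2 to 7) and endoplasmic reticulum stress and chaperones (6 to 19), and the number lower in fatty acid oxidation and ketogenesis (18 to 11), lipid droplet and lipolysis (4 to 2), lipoproteins and fatty acid uptake (7 to 4), resident macrophage (Kupffer cell) (5 to 3), lysosomal enzymes and membrane proteins (1 to 0), B and plasma cell (1 to 0), interleukins / TNF family and inflammasome (6 to 3), antigen presentation (2 to 0), fibrillar and interstitial matrix (3 to 0), matrix proteases / inhibitors and crosslinking (3 to 1), stellate cell and myofibroblast (4 to 1), TGF-beta / PDGF and WNT ligands and receptors (10 to 4), cholangiocyte (1 to 0), endothelial and sinusoidal endothelial cell (6 to 2), hepatocyte (9 to 5), acute phase (10 to 6), coagulation and fibrinolysis (11 to 6), conjugating (phase II) enzymes (8 to 4), antioxidant and redox enzymes (11 to 5), glucose and glycogen metabolism (17 to 8), insulin / growth hormone and IGF signalling (6 to 1), hepatic and circadian transcription factors (15 to 5), endoplasmic reticulum stress and chaperones (3 to 1) and cell cycle and proliferation (1 to 0). Depth limits the folds of genes at or under 3 counts in LFH, such as CCL7.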

Other observations

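Most of a set of genes linked to red cells and their precursors were higher in HFH livers. Of these 14 erythroid profiles 10 were higher and 1 was lower, against 28.0% and 21.7% of all profiles. The set was put together after alpha globin and ALAS2 had been seen among the markers of other organs, so it gets no test of its own. Whether the RNA of each member comes from red cells was not tested. HBA1, which shares its counts with HBA2 and encodes alpha globin, had 226 to 1721 CPM in LFH (median 531) and 902 to 12826 CPM in HFH (median 2403). The groups overlapped and HFH animal 9 was the highest (log2 fold change 2.39 ± 0.63, adjusted p = 0.00163). ALAS2, the first enzyme of haem synthesis in red cells, had 1.79 to 19.5 CPM in LFH (median 4.11) and 12.1 to 133 CPM in HFH (median 32.04) (log2 fold change 2.90 ± 0.68, adjusted p = 4.90e-04), and RHAG, a membrane glycoprotein of red cells, had 0.306 to 0.946 CPM in LFH (median 0.511) and 1.42 to 31.5 CPM in HFH (median 6.61), without overlap (log2 fold change 4.17 ± 0.67, adjusted p = 1.58e-06). GFI1B, a transcription factor of red cell and platelet precursors, had 0 to 0.688 CPM in LFH (median 0) and 0.208 to 23.3 CPM in HFH (median 2.11) (log2 fold change 5.62 ± 1.09, adjusted p = 3.44e-05). HBQ1 rose by 4.06 ± 0.76, XK by 4.12 ± 1.04, BPGM by 1.29 ± 0.27, SPTB by 1.06 ± 0.38, DNASE2 by 1.68 ± 0.19 and the transferrin receptor TFRC by 0.91 ± 0.18 on the log2 scale. SPTB was not called without HFH animal 9 (0.87, adjusted p = 0.0551). The haem enzyme UROD was lower (-0.46 ± 0.13), and HBZ, FECH and SLC25A37 were not called (2.32 ± 1.06, -0.27 ± 0.21 and 0.21 ± 0.21). The call of HBZ depended on the setting. It was called higher without LFH animal 27 (3.91, adjusted p = 0.00801) or HFH animal 61 (2.51, adjusted p = 0.0462), with limma voom (2.65, adjusted p = 0.0380), on variance-stabilized values (0.47, adjusted p = 0.0242) and with library size alone (2.85, adjusted p = 0.0181).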
